A study of Homo sapiens with 2 samples.

Results

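Colon cancer stem cells (CSCs) are recognised by a small set of marker genes, and 10 of them were followed here on arrays labelled as HT-29 cells: CXCR4, PROM1, DCLK1, LGR5, CD24, EPCAM, ALCAM, BMI1, MSI1 and MSI2. Members were all probe sets that the platform annotation assigns to these symbols or to their older aliases. That gave 9 of the 19775 genes with a probe set of their own, BMI1 in addition, and 32 probe sets of 54675 on the array. Of these, 31 belong to 9 markers alone. The remaining one, 202265_at, is shared by BMI1 and the readthrough gene COMMD3-BMI1.

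HT-29 cells are an established line from a human colorectal adenocarcinoma. Spheroids were harvested after 5 days on non-treated, low-adhesion plates in stem cell media supplemented with B27, EGF and FGF. Monolayer cells, from which the spheroids were grown, were kept on tissue culture plates in DMEM/F12 with 10% fetal bovine serum. Both media held an antibiotic-antimycotic, and spheroids differed from monolayer cells in medium as well as in growth form, so that the parts of these in any difference cannot be told apart. RNA of 1 spheroid culture and 1 monolayer culture was measured on 1 array each. No replicate thus stands behind a difference, and none was tested. A bulk signal also cannot tell fewer marker-bearing cells from less RNA per cell.

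CSCs are the cells of a tumour that renew themselves and form spheres in serum-free suspension culture. Several of their markers are also found on normal stem cells of the intestinal crypt, where Wnt signalling keeps those cells dividing. The markers differ in what they are. CXCR4 and LGR5 are receptors, PROM1 (CD133), CD24, EPCAM and ALCAM (CD166) lie on the cell surface without being classical signalling receptors, and DCLK1, BMI1, MSI1 and MSI2 act inside the cell.

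The deposited value of a probe set is a MAS5 signal, an intensity on a linear scale, and both arrays had a trimmed mean of 500.1. The file holds no detection calls. A signal under 62.7, the median of all signals, was taken as too dim to read and set to that floor before log2 was taken. A second, higher floor of 84.7 came from 107 probe sets of olfactory receptors, genes expected to be silent in colon cells, as their 95th percentile. The brightest probe set stood for its gene. The 3' to 5' control ratio was 1.07 on the spheroid array and 1.05 on the monolayer array for GAPDH, and 3.65 and 4.07 for ACTB. Each of the 18 probe sets for spiked hybridisation controls read lower with spheroid RNA, by a mean log2 difference of -0.25, and scaling to them shifts every gene upward alike.

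Epithelial genes were bright on both arrays. The keratin KRT18 had signals of 22627 in spheroids and 29713 in monolayer, and the E-cadherin gene CDH1 had 6059 and 4544. Several intestinal markers were dim, however. CDX1, CDH17, LGALS4 and CEACAM6 were under the floor on both arrays, and the intestinal transcription factor CDX2 was at 80.0 in spheroids and at 55.9, which is under the floor, in monolayer. The villin gene VIL1 was at 27.2 in spheroids, under the floor, and at 100.5 in monolayer. The tetraspanin gene TSPAN8 was also under the floor on both arrays. Other genes of the colon list were read. ELF3 had 738 in spheroids and 441 in monolayer, with 3 of 3 probe sets higher in spheroids. CEACAM5 and GPA33 were read in spheroids alone, at 105.5 and 97.2. HT-29 cells usually express CDH17, LGALS4, CEACAM6 and TSPAN8, so the signals of those genes go against the label. The identity of the cells was not tested, and the arrays are called here by their culture, spheroid or monolayer. Of 10 measured colon epithelial genes, 6 were above 0 and 4 under, where 54.8% of all measured genes were under 0. Among these, CDX2, CEACAM5, GPA33 and VIL1 were read on a single array, so the floor fixed their signs. The keratins KRT8, KRT18 and KRT19 were lower in spheroids (log2 -0.33, -0.39 and -0.29), while KRT20, a keratin of differentiated cells, was 2.19-fold higher, at 218 in spheroids and 99.6 in monolayer. Of 10 leukocyte genes with a probe set 7 were under the floor on both arrays, PTPRC among them, and of 8 endothelial genes 7 were. Among 10 genes of fibroblasts and smooth muscle 5 were under it on both arrays, while COL1A1, a collagen chain, had 1972 in spheroids and 1370 in monolayer. The summed signals of these lists were 316 in spheroids and 519 in monolayer for leukocytes, 209.7 and 343 for endothelium, and 2626 and 2087 for fibroblasts and smooth muscle. The sums include signals under the floor, so those of leukocytes and endothelium cannot be read as amounts of these cells. COL1A1 makes up most of the third sum. The part of such cells in the marker results was not tested.

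CXCR4 was higher in spheroids by over 2-fold and DCLK1 lower by over 2-fold, which makes 1 marker of the 10 in each direction. Another 5 (PROM1, CD24, EPCAM, ALCAM and MSI2) lay between, with log2 differences from 0.04 to 0.49, LGR5 and MSI1 were too dim to read, and BMI1 has no probe set of its own. For comparison, 2.53% of 13183 measured genes reached 2-fold upward and 3.08% reached it downward, and the markers are too few to be read against those shares. The median log2 difference of the 7 measured markers was 0.29, where that of all measured genes was -0.05. Of the 31 probe sets assigned to a marker alone, 23 were above the floor on both arrays, 3 on a single array and 5 on neither. Among the 26 measured ones 3 reached 2-fold upward and 1 downward, beside 4.13% and 2.92% of all measured probe sets. All 3 upward ones belong to CXCR4 and read the same RNA, so they do not count as separate markers.

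**Figure D1:**
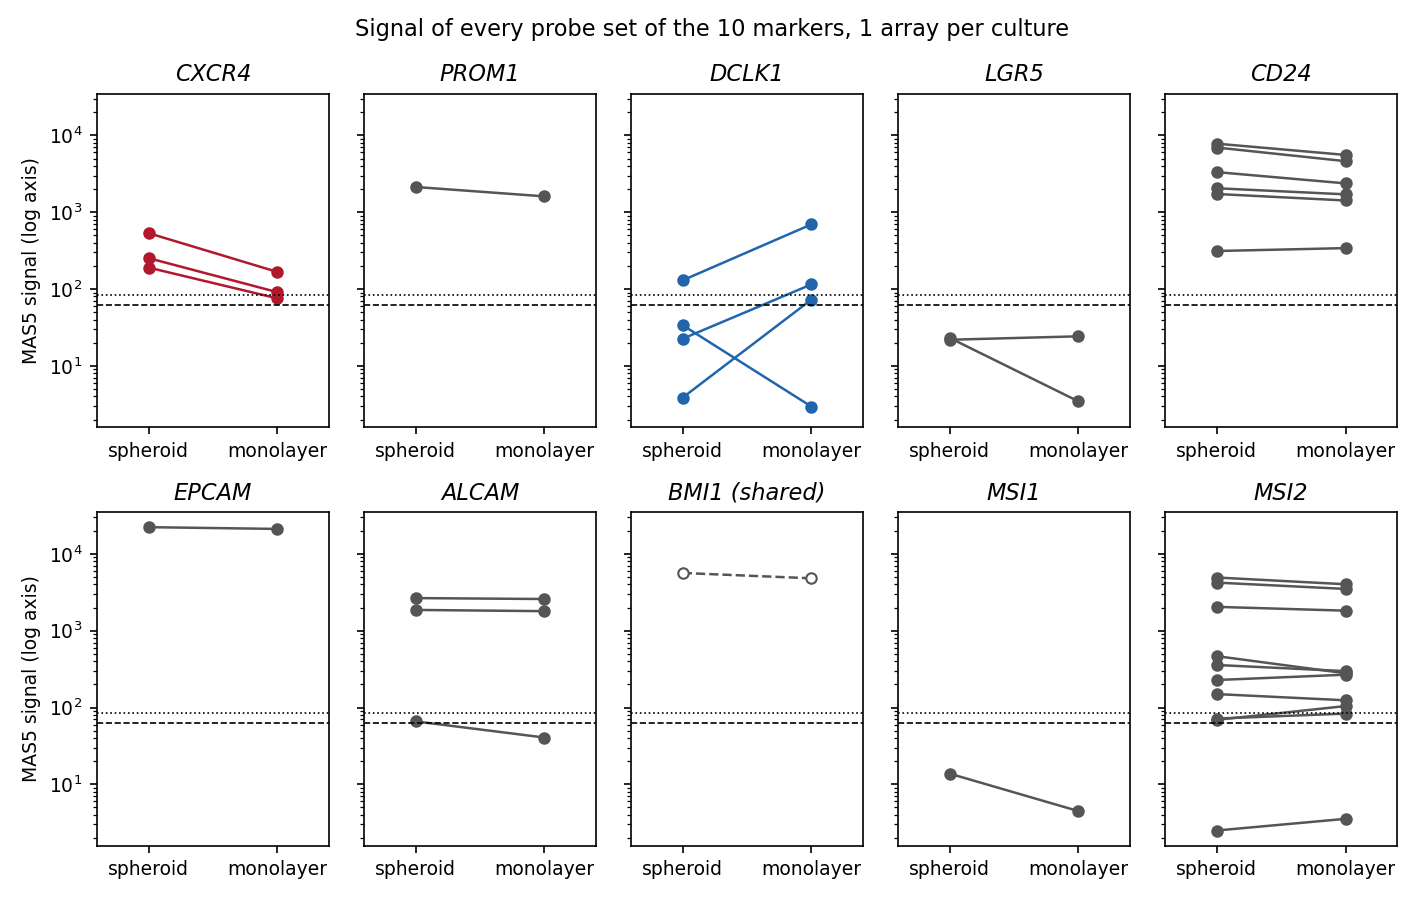
MAS5 signal (log axis) of every probe set of the 10 markers on the spheroid array (left of each panel) and the monolayer array (right), 1 array per culture, with each line joining the values of a probe set. The dashed line is the floor of 62.7 and the dotted line the olfactory receptor floor of 84.7. All 3 lines of CXCR4 are higher in spheroids, the brightest line of DCLK1 is at 130.0 in spheroids and 695 in monolayer, and LGR5 and MSI1 lie wholly under both floors.

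CXCR4, the receptor of the chemokine CXCL12 and a marker used with CD133 to sort CSCs, was higher in spheroids by all of its 3 probe sets. The brightest, 217028_at, had a signal of 533 in spheroids and 167 in monolayer, a 3.20-fold difference (log2 1.68). Probe set 211919_s_at had 252 in spheroids and 90.9 in monolayer, 2.77-fold, and 209201_x_at had 190.1 and 75.5, 2.52-fold. The 3 folds lie close together, with an SD of 0.17 on the log2 scale. Across the array, probe sets of a gene differed from each other by a pooled SD of 0.41, over 5506 genes, which is a spread between probe sets and not between cultures. Only 209201_x_at touches the higher floor, since its monolayer signal is under 84.7. Among 13183 measured genes 42, CXCR4 included, had a log2 difference at least as high. The signals are modest, in a range where large differences are more frequent. Of probe sets with a geometric mean signal between 125 and 500, 11.4% passed 2-fold in either direction. The share was 8.59% between the floor and 125, 3.65% between 500 and 2000 and 1.45% at 2000 and more.

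The ligand of this receptor was not readable. CXCL12 was at 42.1 in spheroids and 11.0 in monolayer by its brightest probe set, and the decoy receptor ACKR3 was also under the floor on both arrays. Of the 15 measured genes of the CXCR4 signalling list 0 passed 2-fold by their brightest probe set, and their median was -0.01. The receptor kinase GRK5 was lower in spheroids, at 774 against 1209 in monolayer (log2 -0.64), and GRK3 was at -0.30. The other receptor kinases of the list were GRK2 at 0.21, with 1 of its 2 measured probe sets lower, and GRK6 at -0.25, with 3 of 4 lower. Their probe sets disagree widely: the lower one of GRK2 was at -1.27, and those of GRK6 ran from -1.10 to 1.79. CD74, which binds the cytokine MIF, had 106 in spheroids and a sub-floor 38.9 in monolayer, at least 1.69-fold higher, but its other measured probe set was at -0.37.

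LGR5, the R-spondin receptor that marks crypt base stem cells, was too dim to read. Its probe set 210393_at had 23.1 in spheroids and 3.44 in monolayer, and 213880_at had 21.9 and 24.2, all under the floor. The ratio of such values has no meaning here, and no fold is given. The related receptor LGR4 was readable, at 523 in spheroids and 508 in monolayer (log2 0.04). All of the 4 R-spondin genes RSPO1 to RSPO4 and LGR6 were under the floor on both arrays. RNF43, a ubiquitin ligase that removes Wnt receptors, was at 1314 in spheroids and 844 in monolayer (log2 0.64), and its partner ZNRF3 was at 0.25. Of the Wnt receptors, FZD7 was lower in spheroids (log2 -0.68) and FZD5 higher (0.32). The coreceptor LRP5 had a sub-floor 57.3 in spheroids and 77.7 in monolayer, at least 1.24-fold lower. None of the 7 measured genes of this list passed 2-fold by its brightest probe set, though a dimmer probe set of the coreceptor LRP6 was at 1.03.

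PROM1, the gene of the pentaspan membrane protein CD133, has a single probe set, 204304_s_at. Its signal was 2130.4 in spheroids and 1609 in monolayer, 1.32-fold higher in spheroids (log2 0.41). CD133 is the other marker of the sort with CXCR4, and its RNA lies within 2-fold. No other probe set can be set beside it. Its paralog PROM2 was at 195.6 in spheroids and 220.4 in monolayer (log2 -0.17), with 3 of 4 measured probe sets lower. CD133 sits on membrane protrusions. EZR, the gene of ezrin, which ties such protrusions to actin, was 2.08-fold lower in spheroids, at 10224 against 21301 in monolayer, and all of its 5 probe sets were lower, at log2 differences from -1.28 to -0.53. The other 6 genes of this list were under the floor on both arrays.

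CD24, a small glycoprotein held in the outer leaflet of the plasma membrane by a lipid anchor, was modestly higher in spheroids by 5 of its 6 probe sets. The brightest, 209771_x_at, had 7809 in spheroids and 5571 in monolayer, 1.40-fold (log2 0.49). Probe set 216379_x_at had 6956 and 4621 (log2 0.59), and 266_s_at had 3328 and 2374 (0.49). The next in brightness had smaller differences: 208651_x_at had 2051 in spheroids and 1709 in monolayer (0.26), and 208650_s_at had 1728 and 1422 (0.28). The dimmest, 209772_s_at, had 313 in spheroids and 341 in monolayer and was the only lower one (-0.13). The probe sets differ by 0.72 from lowest to highest, wider than the differences themselves, and none reached 2-fold. CD24 has near-identical retrotransposed copies in the genome, and probe sets with the suffix _x_at hold probes that match other sequences, so its signal may be mixed. All 6 CD24 probe sets carry the suffix _s_at or _x_at. SIGLEC10, the inhibitory receptor that binds CD24, and the selectin SELP were under the floor on both arrays.

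EPCAM and ALCAM, the adhesion molecules of the set, were nearly level. EPCAM, which joins epithelial cells to each other, had 22299 in spheroids and 21151 in monolayer by its single probe set 201839_s_at (log2 0.08). ALCAM, an immunoglobulin family adhesion protein, had 2660 in spheroids and 2587 in monolayer by 201952_at (0.04), and 1865 and 1797 by 201951_at (0.05). The third ALCAM probe set, 1569362_at, was at 66.0 in spheroids and 40.7 in monolayer, barely above the floor on the spheroid array. These signs do not hold under another scaling: with the arrays scaled to their medians EPCAM was at -0.000207 and ALCAM at -0.04. The claudin CLDN7, a partner of EPCAM, was also level (0.02). CD82, a tetraspanin, was 2.29-fold lower in spheroids, at 193 against 442 in monolayer, by a probe set with the suffix _x_at, but its other probe set was at 0.42. The tetraspanin CD151 was higher (0.45), FHL2, which binds the cleaved tail of EPCAM, lower (-0.33), and the presenilin PSEN2, part of the protease that releases this tail, was at 0.23 by its brightest probe set, but its other 2 were lower, down to -0.39. The T cell protein CD6, which binds ALCAM, was at 152 in spheroids and at 5.56 in monolayer, under the floor. That is at least 2.43-fold higher by 1 of 7 probe sets, of which 2 were measured, and the other measured one was at 0.13. The neuronal adhesion gene L1CAM was at -0.85, ICAM1 at -0.80 (its other measured probe set at 0.06) and CD58 at 0.38.

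**Figure D2:**
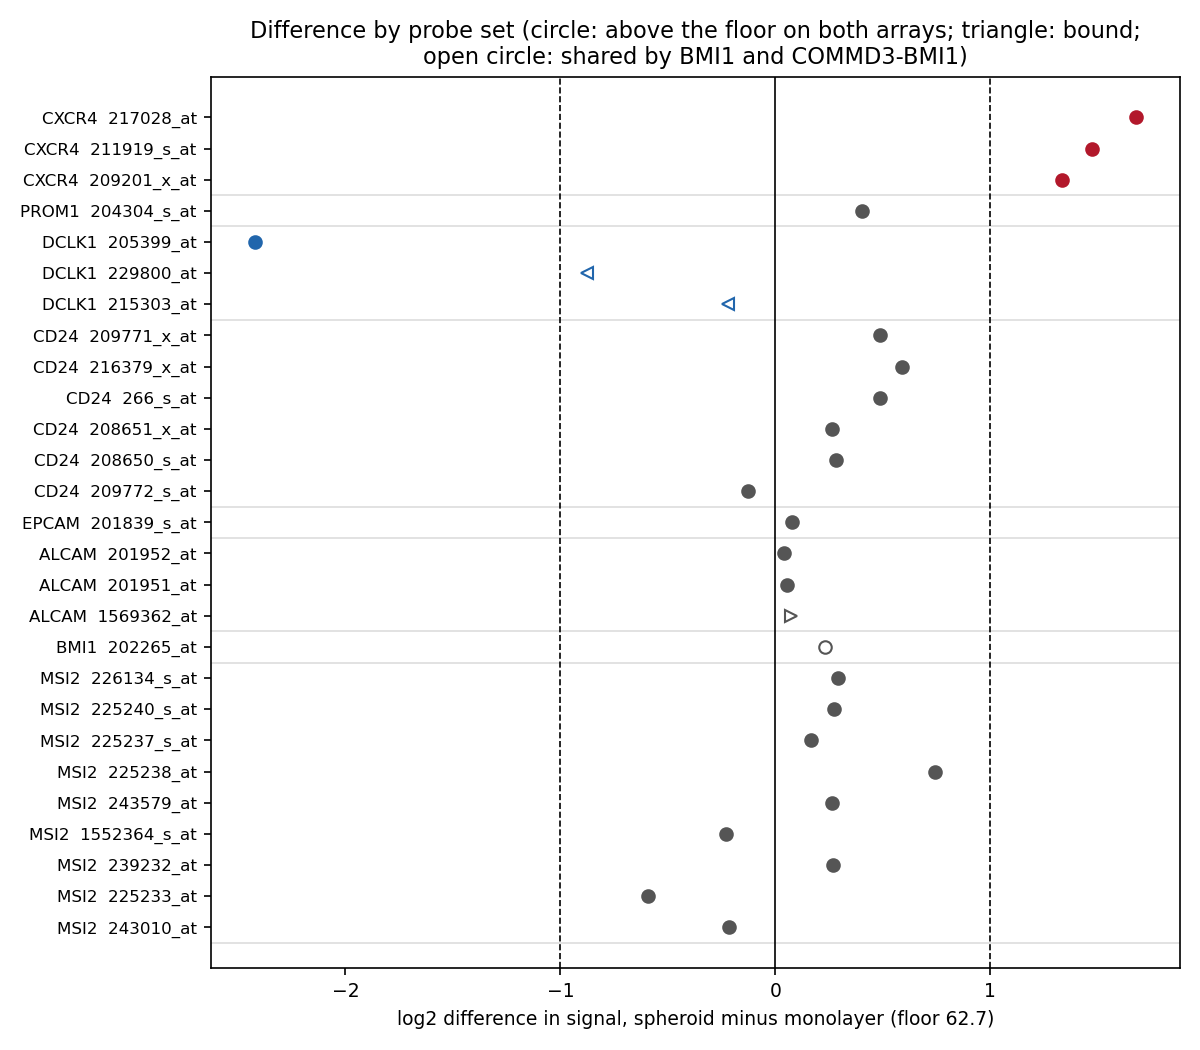
Log2 difference in MAS5 signal, spheroid minus monolayer, for each marker probe set above the floor of 62.7 on at least 1 array. Filled circles are above the floor on both arrays, triangles are bounds, the open circle is shared by BMI1 and COMMD3-BMI1, and dashed lines mark 2-fold. The 3 circles of CXCR4, from 1.33 to 1.68, and the DCLK1 circle at -2.42 are beyond the dashed lines.

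DCLK1, the gene of DCAMKL1, a kinase with a doublecortin domain that binds microtubules and a marker of tuft cells and of CSCs in mice, was lower in spheroids. Its brightest probe set, 205399_at, had 130.0 in spheroids and 695 in monolayer, 5.35-fold lower in spheroids (log2 -2.42), and both signals are above either floor. Only 2 other measured genes had a log2 difference as low. Probe set 229800_at was at 22.6 in spheroids, under the floor, and at 115 in monolayer, which gives at least 1.83-fold lower. Probe set 215303_at was at 3.86 in spheroids and 73.0 in monolayer, at least 1.16-fold lower, and its monolayer signal is under the higher floor. The fourth, 230962_at, was under the floor on both arrays, at 33.8 in spheroids and 2.94 in monolayer. The DCLK1 difference therefore rests on 1 probe set. Probe sets 229800_at and 215303_at were read only on the monolayer array, so the floor fixed their direction and they add no separate support. The unread 230962_at gives no direction, since both of its signals are under the floor. Taking the median of its probe sets, 2 of which are bounds, gave -0.87, which does not reach 2-fold.

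The relatives DCX, DCLK2 and DCLK3 were under the floor on both arrays. So were the tuft cell genes POU2F3, the transcription factor that specifies these cells, TRPM5, a cation channel of taste signalling, GFI1B, IL25 and HPGDS. Of 20 genes of this list with a probe set, 9 were measured, and 1 passed 2-fold, downward. PTGS1, the gene of cyclooxygenase COX-1, was that one, at 131 in spheroids and 317 in monolayer (log2 -1.27), but its other 2 measured probe sets were higher in spheroids. ALOX5, which makes leukotrienes, was at 226 in spheroids and 426 in monolayer (-0.91), and PLCG2, a phospholipase, at -0.64, with its other measured probe set at 0.53. SH2D6 had 93.3 in spheroids and a sub-floor 42.9 in monolayer, at least 1.49-fold higher.

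CXCR4 and DCLK1 are the markers past 2-fold, and the sequence just before their start sites is shown to place them in the genome. RefSeq promoter windows on GRCh38.p14 were found for 7 of the 10 markers. Both genes have 3 start sites in that table, and DCLK1 has an internal one 276 kb downstream of the first. The first start of each gene and the internal start of DCLK1 are given, as the 250 bases before the start, 5' to 3'. Capitals mark matches on either strand to any of 4 motifs. The GC box, where Sp1 binds, was searched as GGGCGG. The core of the hypoxia element, where HIF binds, was searched as ACGTG. The core of the element of the Wnt factor TCF was searched as CTTTGA, and the TATA box as TATAAA.
CXCR4, first start, chr2:136118150-136118399, minus strand: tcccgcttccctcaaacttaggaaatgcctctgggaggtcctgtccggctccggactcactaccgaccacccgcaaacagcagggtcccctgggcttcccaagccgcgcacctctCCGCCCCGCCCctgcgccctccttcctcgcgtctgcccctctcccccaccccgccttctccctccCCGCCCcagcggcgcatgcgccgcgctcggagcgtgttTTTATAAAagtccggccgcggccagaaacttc
DCLK1, first start, chr13:36131940-36132189, minus strand: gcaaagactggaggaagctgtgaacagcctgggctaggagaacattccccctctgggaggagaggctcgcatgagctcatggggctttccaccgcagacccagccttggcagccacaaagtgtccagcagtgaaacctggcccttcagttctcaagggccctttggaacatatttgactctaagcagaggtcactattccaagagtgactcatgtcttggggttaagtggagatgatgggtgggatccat
DCLK1, internal start, chr13:35855668-35855917, minus strand: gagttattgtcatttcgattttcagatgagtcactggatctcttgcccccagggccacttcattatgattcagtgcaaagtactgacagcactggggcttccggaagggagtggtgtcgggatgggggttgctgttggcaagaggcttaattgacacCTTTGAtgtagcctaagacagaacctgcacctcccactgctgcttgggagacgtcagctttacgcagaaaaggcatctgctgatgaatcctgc
The CXCR4 window holds 3 GC boxes, 2 of which overlap by a base, and a TATA box, whose stretch matches on both strands, and no hypoxia core. The first DCLK1 window holds none of the 4 motifs, and the internal one holds a TCF core. The window of the remaining DCLK1 start, 0.557 kb downstream of the first and not shown, holds 1 GC box. Of 35116 windows of this length in the table, 42.6% hold a GC box, 18.5% a hypoxia core, 11.2% a TCF core and 10.7% a TATA box. These are matches of letters and not shown sites, and the arrays do not say from which DCLK1 start its RNA came.

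MSI1 and MSI2, the Musashi RNA-binding proteins that hold back translation of target mRNAs such as NUMB, differed in whether they could be read. MSI1 had 13.8 in spheroids and 4.48 in monolayer by its single probe set 206333_at, under the floor. MSI2 was readable by 9 of 10 probe sets, of which 6 were higher in spheroids and 3 lower, none by 2-fold. The brightest, 226134_s_at, had 4930.1 in spheroids and 4027 in monolayer (log2 0.29), followed by 225240_s_at with 4232 and 3501 (0.27) and 225237_s_at with 2045 and 1824 (0.16). Probe set 225238_at had the widest upward difference, with 467 in spheroids and 279 in monolayer, 1.67-fold (0.74). None of the lower probe sets is among the bright ones. Probe set 1552364_s_at had 228 in spheroids and 268 in monolayer (-0.23), and 225233_at had 69.2, under the higher floor, and 104 (-0.59). The last, 243010_at, had 71.8 in spheroids and 83.3 in monolayer (-0.21), both under the higher floor, and is too dim to read by it. Probe set 243579_at had 358 in spheroids and 298 in monolayer, 239232_at had 149.6 and 124, both at 0.27, and 1559987_at was under the floor on both arrays, at 2.51 and 3.55. The spread of the 9, an SD of 0.39, is wider than their median difference of 0.27.
Of the RNA-binding relatives, IGF2BP2 and IGF2BP3, which stabilise mRNAs, were at -0.25 and -0.17, RBFOX2, a splicing factor, at 0.15 and NUMBL, a relative of NUMB, at 0.20. NUMB was under the floor on both arrays by its own probe set. None of the 6 measured genes of this list passed 2-fold.

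BMI1, a subunit of the Polycomb repressive complex PRC1 that silences the CDKN2A locus, cannot be read apart from COMMD3-BMI1. The shared probe set 202265_at had 5648 in spheroids and 4813 in monolayer, 1.17-fold higher in spheroids (log2 0.23). The 18 other Polycomb genes with a probe set were all measured, 11 of them above 0 and 7 under, and 0 passed 2-fold by their brightest probe set. Dimmer probe sets passed it in both directions, at 1.03 for PCGF1 and at -1.01 for PHC1. EZH2, the methyltransferase of the partner complex PRC2, was at 3521 in spheroids and 2413 in monolayer (0.55), while the Polycomb reader CBX7 was at 327 and 549 (-0.75) and PHC2 at -0.72. EZH1, the other PRC2 methyltransferase, was at 0.70 by its brightest probe set, but 4 of its 5 probe sets were lower. The median of the list was 0.24, where that of all measured genes was -0.05, with 45.2% of them above 0. These values depend on the scaling. With the arrays scaled to the spiked controls 15 Polycomb genes were above 0 and 3 under, with a median of 0.48. In that setting 67.2% of all measured genes were above 0.

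**Figure D3:**
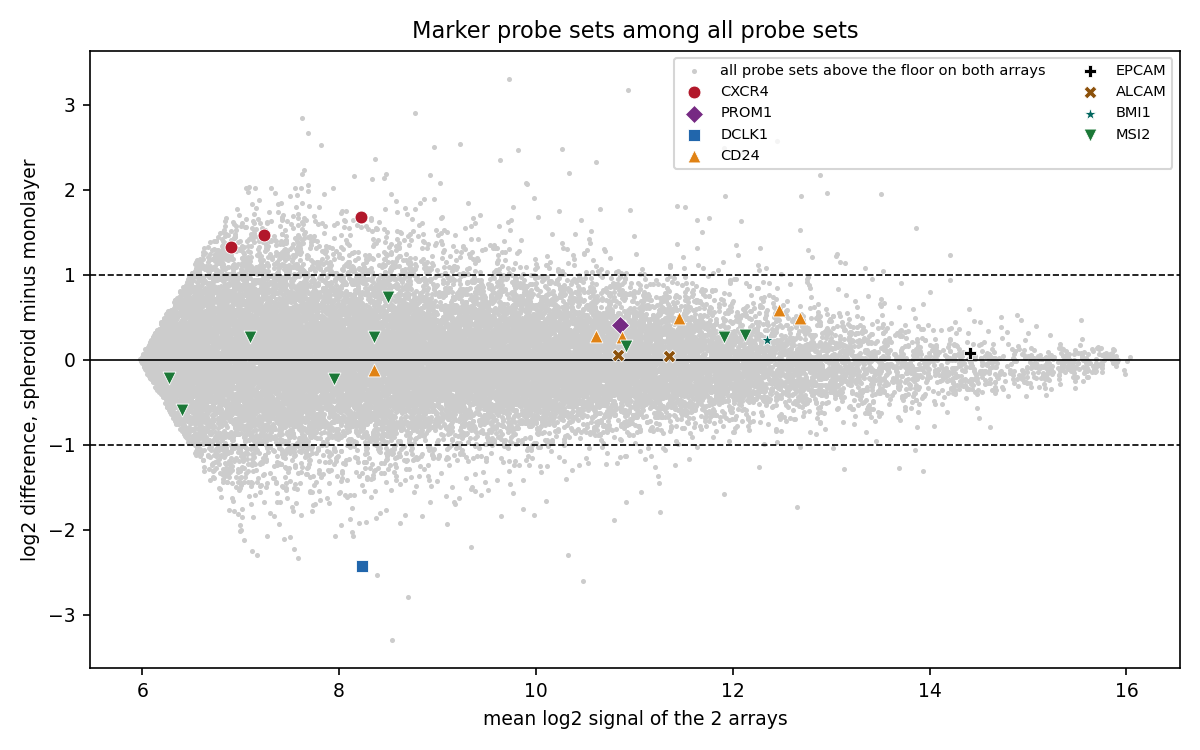
Log2 difference (spheroid minus monolayer) against the mean log2 signal of the 2 arrays for marker probe sets (coloured symbols) and for every other probe set that neither array reads under the floor (grey points), with dashed lines at 2-fold. CXCR4 (red circles, up to 1.68) and DCLK1 (blue square, -2.42) lie toward the dim end, where the grey cloud is wide. Where it is narrow, the bright markers EPCAM (0.08), BMI1 (0.23) and CD24 (0.49 by its brightest probe set) lie within 2-fold.

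Of 15 measured other stem cell genes of the crypt and of colon CSCs, 12 were under 0 and 3 above, with a median of -0.16. Over all measured genes 54.8% were under 0. None of the 15 passed 2-fold by its brightest probe set. Dimmer probe sets of RGMB and CD44 passed it downward, at -1.53 and -1.22 at the lowest, and no probe set of the list passed it upward. The sign of this list depends on the scaling: with the arrays scaled to the spiked controls 4 of its genes were under 0 and 11 above, with a median of 0.09, and 32.8% of all measured genes were then under 0. The laminin receptor subunit ITGA6 was at 1974 in spheroids and 3525 in monolayer (log2 -0.84), and the transcription factor SOX9 at 3602 and 5764 (-0.68), both by 2 of 2 probe sets. TNFRSF19, a Wnt target, was at -0.48, and TSPAN6, a tetraspanin, at 0.35. The crypt stem cell genes OLFM4, ASCL2 and SMOC2, and ALDH1A1, were under the floor on both arrays, as LGR5 was. Over all 9 lists of genes related to the markers, 90 of 141 were measured. Of these, 1 reached 2-fold upward (1.11%) and 3 downward (3.33%), against 2.53% and 3.08% of all measured genes, and their median was -0.02. The higher one was CD6 and the lower ones were PTGS1, CD82 and EZR, of which EZR alone had every measured probe set in the same direction with both signals bright. EZR, at -1.06, was close to the cutoff. With the arrays scaled to the spiked controls EZR lay within 2-fold, and 1 related gene stayed at least 2-fold lower.

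**Figure D4:**
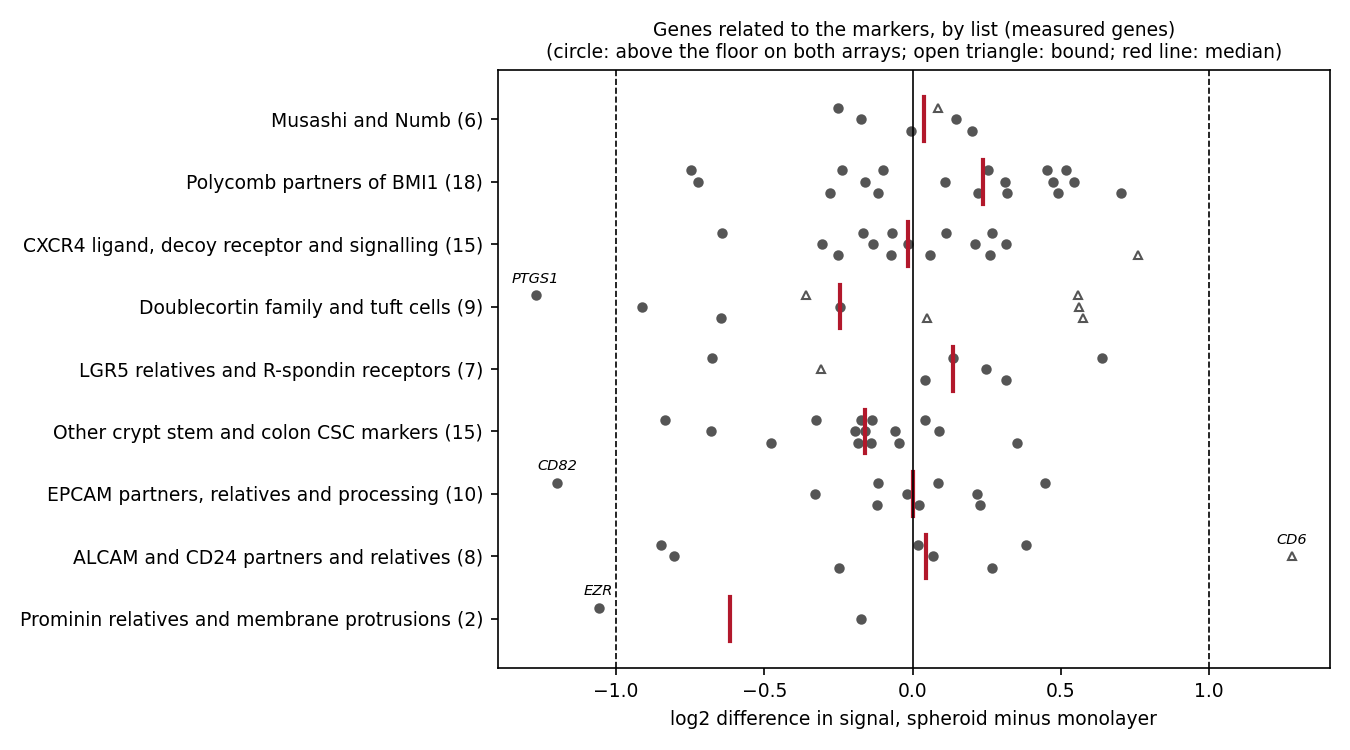
Log2 difference (spheroid minus monolayer) of the genes related to the markers, by list (number measured in parentheses). Circles are genes above the floor on both arrays, open triangles are bounds, red lines the median of each list and dashed lines 2-fold. CD6, a bound at 1.28, lies to the right of the dashed lines, and PTGS1, CD82 and EZR lie to the left.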

How the data were processed

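RNA of spheroids and of monolayer cells, both labelled HT-29, was hybridised by the authors to the Human Genome U133 Plus 2.0 array, and MAS5 signals were computed with Affymetrix Expression Console. The deposited values are these intensities, on a linear scale, for 54675 probe sets. The methods describe duplicates, and 1 array per condition was analysed here, which limits the precision. Probe sets were named through the platform annotation: 41097 have 1 gene, 1801 several and 11777 are unnamed here. Through their gene numbers, 41043 took the present symbol in RefSeq (GRCh38.p14).

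Computation used Python 3.11.15, numpy 2.4.6, pandas 2.3.3 and matplotlib 3.10.9. Signals under the floor (the 50th percentile) were set to it. Each gene was represented by its brightest probe set (mean log2 signal over both arrays, before the floor). A probe set under the floor on 1 array gives a bound, and one under it on both gives no fold. Differences were counted from 2-fold, the cutoff the study's methods use. Markers and gene lists were chosen with earlier results of these data known. All marker probe sets are named, and from each list the genes past 2-fold and up to 4 with the largest difference, except 1 gene of the CXCR4 signalling list that is not reported here. Other genes were named after their values were seen, as under the floor or to complete a group. The computation was tested on simulated data. Alternatives were 4 scalings, 3 treatments of the floor, a pseudocount of 15.9, 3 choices of probe set and a 3-fold threshold. The signs of each list under the scalings were added after seeing the data.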

Additional observations from a re-analysis of the deposited data

How the results depend on the processing

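CXCR4 was higher and DCLK1 lower in spheroids under all alternatives that give them a value, with log2 differences from 0.47 to 1.92 and from -2.50 to -0.85. CD24, PROM1 and MSI2 also stayed above 0. Scaled to the spiked hybridisation controls, the median of all measured genes was 0.18, where it was -0.05 as deposited, and 78.7% of the genes past 2-fold were then higher, against 45.1%. This scaling put CXCR4 at 1.92 and DCLK1 at -2.17. It shifts every gene above the floor alike, so their standing among the genes could hardly change and adds no support. Scaling to the medians gave 34.0%, and the floor at the 75th percentile 57.5%.

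Counts depend on the floor. With the floor at the 75th percentile, 386, the markers at least 2-fold higher and lower numbered 0 and 0, their probe sets 0 and 0 with 16 too dim to read, and the related genes 0 and 1. In that setting CXCR4 was at 0.47 and DCLK1 at -0.85, both bounds, since 1 of the 2 signals of each lies under it. With the olfactory receptor floor 8 marker probe sets were too dim, and 0 related genes were higher. Without a floor 2 markers were at least 2-fold higher, the second being MSI1, 6 marker probe sets were higher and 3 lower, and 18 related genes were higher and 12 lower. With the pseudocount 5 marker probe sets were higher and 3 lower, and related genes 12 and 7. With the median of probe sets 0 markers were lower, and related genes numbered 0 higher and 1 lower. The probe set of the largest difference gave 4 related genes higher and 7 lower. Without _s_at and _x_at probe sets 1 related gene was lower, as with spike-in scaling, and MSI2 was at 0.74, by 225238_at. At 3-fold 1 marker probe set was higher, and 0 related genes were higher and 0 lower. PROM1, CD24 and EPCAM have no probe set without such a suffix, so that choice gave them no value. With 1 array per culture nothing here measures variation between cultures. No paired analysis was possible because each group holds 1 array.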
